A study of Homo sapiens with 4 samples.

Results

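The RNAs described here are the long intergenic noncoding RNAs of the LINC numbering that were read at a measurable level in U118-MG, an established human glioma line. They were chosen from the gene names and the raw counts: a name made of LINC and a number, and a sum of at least 200 counts over the 4 libraries. Such a name was carried by 2244 of the 61806 genes, of which 803 had any count and 128 reached the floor. The study compared U118-MG cells infected with a lentivirus carrying the pCDH-CMV-MCS-EF1-puro vector with SPNS2 cDNA (SPNS2, 2 libraries) with cells infected with the negative control vector (NC, 2 libraries). Both groups were labelled wild type, carried the same vector backbone with its puromycin resistance gene and were grown in serum-containing DMEM. SPNS2 exports the signalling lipid sphingosine 1-phosphate, and the CMV promoter of this vector drives strong expression.

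LINC is the naming scheme for long RNAs that lie between protein-coding genes, are made by RNA polymerase II and do not code for a known protein. Many are spliced and capped like mRNAs but are read at lower levels and in fewer cell types. Some act on chromatin or on genes near them, some host microRNAs in their introns, a few were later found to encode small proteins, and most have no known role. In glioma and other tumours several are studied as markers or growth regulators.

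The libraries held 31353373 to 34125159 counts, of which the 128 RNAs took 0.0785% to 0.0821%. SPNS2 itself was read 42 and 47 times in NC and 7381 and 8224 times in SPNS2. The astroglial and progenitor genes GFAP, S100B, OLIG2, SOX2 and AQP4 had at most 8 counts in any library, while VIM, CD44 and EGFR had at least 3694 counts in each. VIM was called higher in SPNS2, and CD44 and EGFR were not called. NES, the last marker of this list, was called lower, with 552 and 684 counts in NC and 311 and 365 in SPNS2. Markers of other cell types did not move together within a list. Of 5 neuron markers RBFOX3 and STMN2 were at 0, SYT1 fell from 16.2 and 15.7 to 2.37 and 2.75 CPM (counts relative to the scaled library total), SNAP25 rose from 3.65 and 2.02 to 7.89 and 12.9 CPM and TUBB3 was not called, and the sum stood at 89.4 and 136 CPM in NC and 154 and 165 CPM in SPNS2. The sum of 5 microglia and macrophage markers, 130 and 111 CPM against 78.0 and 67.7 CPM, was nearly all CD68, with AIF1 and CX3CR1 at 0, PTPRC at no more than 10 counts and CSF1R not called. Of 4 fibroblast and pericyte markers DCN fell from 701 and 516 to 21.4 and 15.7 CPM while COL1A1 and PDGFRB rose, and the sum ran from 1925 to 2154 CPM in NC and from 1938 to 1978 CPM in SPNS2. Endothelial and epithelial markers (4 genes each) summed to at most 8.56 and 2.69 CPM in any library. Of the endothelial ones PECAM1 was called higher and VWF lower, KDR was not called and CDH5 was not tested. Their part in the results was not tested, and in bulk libraries fewer cells of a type and less RNA per cell cannot be told apart.

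The level of the RNAs differed widely. Mean levels ran from 1.53 to 43.9 CPM after scaling by TMM (trimmed mean of M-values), with a median of 3.96 CPM against 15.2 CPM for all tested genes. Per kilobase of exon, their median level was 1.37 CPM per kb against 5.49 CPM per kb for tested protein-coding genes. The 10 most abundant RNAs held 29.8% of all counts of the 128. Their transcripts were short in exons: the longest annotated transcript had a median of 3 exons, against 8 for tested protein-coding genes. At the floor itself stood LINC01003 (200 counts) and LINC01409 (203 counts), and just below it LINC00877 (199 counts) and LINC01854 (197 counts).

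The name did not always mean an intergenic RNA in the annotation. Of 127 RNAs with an entry in GENCODE release 29, 97 were typed lincRNA, 11 processed transcripts, 7 antisense, 7 transcribed unprocessed pseudogenes and 2 bidirectional promoter RNAs. LINC02693, the most abundant of all, was typed protein-coding there under the name C17orf51. The span of 72 RNAs overlapped at least 1 other annotated gene, and in 12 of them a protein-coding gene. Whether the counting used strand is not given in the sources used here, so reads of overlapping genes on the 2 strands cannot be assigned with certainty.

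Promoter windows were held by the RefSeq table (GRCh38.p14) for 86 of the 128 RNAs, each reaching from 250 bases before to 50 after the annotated start. They are shown here for 5 RNAs whose level differed between the groups and whose RefSeq start lay near the GENCODE one. LINC01234 (chr12:113773634-113773933, minus strand) and LINC01224 (chr19:23416025-23416324, minus strand) were among the 4 with the highest fold changes. LINC00472 (chr6:71420696-71420995, minus strand) is the host of microRNAs. LINC01547 (chr21:44939864-44940163, minus strand) and LINC01940 (chr2:238926220-238926519, minus strand) fell, and the first of these windows also holds the start of SLX9 on the other strand. Capitals mark matches, on either strand, to CCAAT (the NF-Y box), GGGCGG (the GC box) and GGAATG (a TEAD motif).
LINC01234: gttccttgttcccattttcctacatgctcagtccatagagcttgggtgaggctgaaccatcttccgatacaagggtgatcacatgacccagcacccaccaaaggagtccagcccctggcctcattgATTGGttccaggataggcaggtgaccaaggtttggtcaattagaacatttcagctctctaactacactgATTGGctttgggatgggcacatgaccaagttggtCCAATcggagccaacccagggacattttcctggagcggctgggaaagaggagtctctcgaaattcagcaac
LINC01224: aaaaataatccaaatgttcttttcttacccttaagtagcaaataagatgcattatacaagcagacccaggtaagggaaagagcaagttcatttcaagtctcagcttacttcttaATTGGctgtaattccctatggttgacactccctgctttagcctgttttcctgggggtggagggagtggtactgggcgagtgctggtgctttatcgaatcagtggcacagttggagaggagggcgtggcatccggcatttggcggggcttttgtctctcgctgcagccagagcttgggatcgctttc
LINC00472: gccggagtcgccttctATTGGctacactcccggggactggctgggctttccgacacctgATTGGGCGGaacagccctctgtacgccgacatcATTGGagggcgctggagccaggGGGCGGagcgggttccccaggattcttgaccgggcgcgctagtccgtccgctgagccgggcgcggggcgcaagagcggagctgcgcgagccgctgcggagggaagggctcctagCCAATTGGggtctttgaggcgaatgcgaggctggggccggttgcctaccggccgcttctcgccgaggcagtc
LINC01547: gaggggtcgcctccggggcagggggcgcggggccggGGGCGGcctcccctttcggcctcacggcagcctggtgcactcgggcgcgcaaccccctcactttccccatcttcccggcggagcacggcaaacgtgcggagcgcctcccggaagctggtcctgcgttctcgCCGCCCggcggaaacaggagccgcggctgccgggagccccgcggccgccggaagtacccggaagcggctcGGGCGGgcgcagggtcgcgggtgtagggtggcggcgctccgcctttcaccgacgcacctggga
LINC01940: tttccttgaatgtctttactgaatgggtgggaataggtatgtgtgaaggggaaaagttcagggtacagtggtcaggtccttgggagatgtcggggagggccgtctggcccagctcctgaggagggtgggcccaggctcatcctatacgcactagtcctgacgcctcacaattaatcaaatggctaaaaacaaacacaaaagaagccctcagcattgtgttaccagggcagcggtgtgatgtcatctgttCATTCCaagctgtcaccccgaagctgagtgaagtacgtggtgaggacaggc
LINC01234 has 3 CCAAT matches, and LINC00472 has 5 CCAAT and 2 GC box matches, some of them overlapping. LINC01547 has 42 CpG dinucleotides in its window and LINC01234 has 4.

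The 7 motifs counted in these windows and in all 27305 windows of the table were those named above and the AP-1 site TGANTCA, the E-box with letters CACGTG, the CRE with letters TGACGTCA and the TATA box with letters TATAAA, each on both strands and including overlaps. CCAAT occurred in 43 of the 86 windows, against 35.7% of all windows. AP-1 occurred in 12.8% against 7.76%, TEAD in 9.3% against 14%, and the GC box in 40.7% against 44.6%. The E-box was in 4.65% and 7.43%, CRE in 3.49% and 1.98%, and the TATA box in 10.5% and 12%. Among the RNAs that rose, 2 of 13 windows held a GC box and 8 of 13 CCAAT, and the median number of CpG dinucleotides was 4. Among those that fell, 3 of 11 held a GC box and 5 of 11 CCAAT, with a median of 7 CpG. Among those that were not called, 30 of 62 held a GC box and 30 of 62 CCAAT, with a median of 13.5 CpG. Only 63 of the 86 windows lay within 500 bp of the GENCODE start, so some windows may not be the promoter used in these cells. Of the RNAs that rose, LINC01287, LINC00623, LINC01705, LINC01582, LINC00973 and LINC01358 had windows farther off, by 1037 to 86833 bp. Of those that fell, LINC01588 and LINC02535 did. The counts for the RNAs that rose thus rest in large part on such windows. These matches were counted and no difference between the sets was tested.

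In SPNS2 cells 20 of the 128 RNAs rose and 14 fell, while 94 were not called by the edgeR quasi-likelihood test at an adjusted p under 0.05. Over all 17853 tested genes 12.1% rose, 11.3% fell and 23.4% were called in either direction, so the share of 26.6% among the LINC RNAs was near the background. The calls of at least 2-fold were 18 higher and 11 lower, 22.7% of the 128 against 9.9% of all tested genes. Among 1325 protein-coding genes between the quartiles of the RNAs' level (2.32 to 7.4 CPM), 25.3% were called with at least 2-fold and 28.3% at any size. Over the full range of the RNAs' level (1.53 to 43.9 CPM) the shares were 13.4% and 24.7% of 6774 protein-coding genes, whose median level of 16.6 CPM was higher than that of the RNAs. No difference between these shares was tested. The median log2 fold change was -0.072 among the RNAs and -0.0085 among all tested genes. The levels of all 128 summed to 779 ± 14.4 CPM for NC and 832 ± 10.5 CPM for SPNS2 (mean ± SD, n = 2 libraries, as for all later means). The size of that difference rested on the scaling: the log2 ratio was 0.094 with TMM and 0.038 with library totals alone. The 2 groups did not overlap at 90 of the 128 RNAs, 70.3%, against 66.0% of all tested genes.

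**Figure D1:**
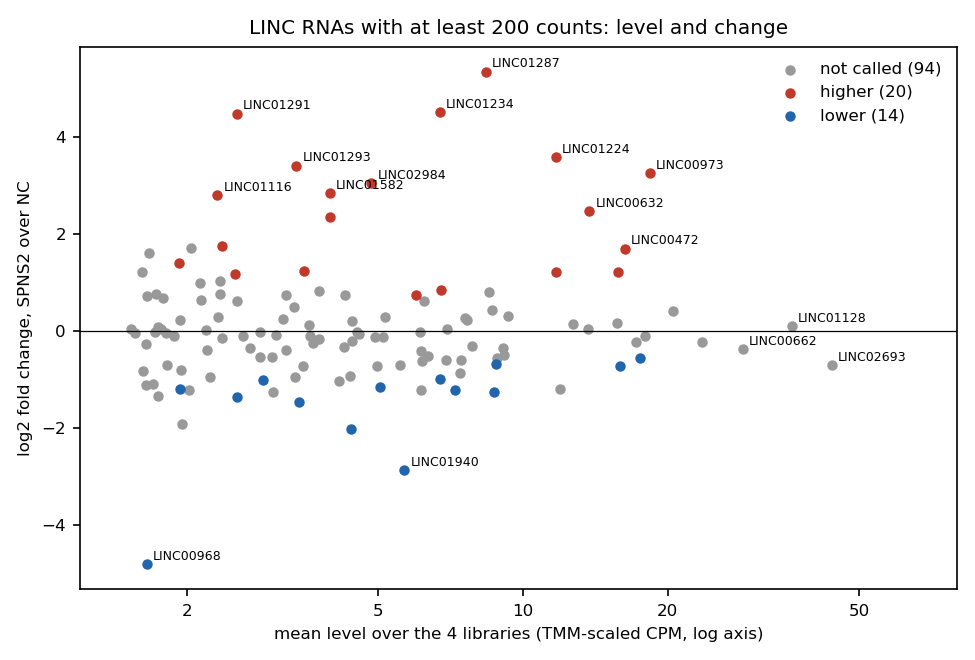
Mean level over the 4 libraries (x axis, TMM-scaled CPM, log axis) against the log2 fold change of SPNS2 over NC (y axis) for the 128 RNAs, with 20 called higher in red, 14 called lower in blue and 94 not called in grey. LINC01287 stands highest at 5.35 and LINC00968 lowest at -4.82, while the 3 most abundant RNAs lie between -0.70 and 0.10.

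The floor of 200 counts bears on these counts. It was passed by 17 RNAs with fewer than 100 counts over the NC libraries, 10 of which were called higher, and by 15 with fewer than 100 counts over the SPNS2 libraries, 4 of which were called lower. Those RNAs could enter only through the group with more counts. For some the groups hardly differed, as at LINC01409 with 104 counts over NC and 99 over SPNS2. Among the 96 with at least 100 counts in each group, 10 rose and 10 fell, 20.8%. Calls of at least 2-fold among these 96 were 8 higher and 7 lower, 15.6%.

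The largest rises were in RNAs that were barely read in control cells. LINC01287, on 7q (chr7:153355365-153413981), was at 0.53 and 0.27 CPM in the NC libraries and 13.5 and 19.2 CPM in the SPNS2 libraries. It had 17 and 9 counts in NC against 416 and 640 in SPNS2, a 41.0-fold difference (log2 fold change 5.35, SE 0.41, edgeR adjusted p = 0.0038). LINC01234, on 12q, was at 0.44 and 0.68 CPM in NC and 11.4 and 14.3 CPM in SPNS2, 23.0-fold higher (log2 fold change 4.51, SE 0.31, edgeR adjusted p = 0.0031). Both SPNS2 libraries lay far above both NC libraries for each. LINC01234 has been studied as a growth-promoting RNA in several carcinomas, and its promoter window with 3 CCAAT boxes is printed above. LINC01224, beside the zinc finger gene ZNF91 on 19p, was at 2.40 and 1.19 CPM in NC and 19.7 and 23.5 CPM in SPNS2 (log2 fold change 3.59, SE 0.38, edgeR adjusted p = 0.0076). The 2 control libraries differed from each other at LINC01224, and the groups still lay apart. Neither RBM19, 43.1 kb from LINC01234, nor ZNF91, 3.67 kb from LINC01224, was called (edgeR adjusted p = 0.353 and 0.205).

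A pair of RNAs in tandem on 2p rose together. LINC01291 (chr2:74918148-74938418, plus strand) ends 1840 bp before LINC01293 (chr2:74940258-74942670, plus strand) begins. LINC01291 had 8 and 6 counts in NC and 137 and 176 in SPNS2, 22.7-fold higher in CPM (log2 fold change 4.49, SE 0.33, edgeR adjusted p = 0.0034). LINC01293 had 16 and 22 counts in NC and 201 and 194 in SPNS2, 10.7-fold higher (log2 fold change 3.41, SE 0.27, edgeR adjusted p = 0.0039). No count separates 1 long transcript over both from 2 separate ones. The next protein-coding gene, POLE4 (a small subunit of DNA polymerase epsilon), lay 15.8 kb from LINC01293 and also rose, from 16.5 ± 0.40 to 23.1 ± 1.53 CPM (edgeR adjusted p = 0.0458).

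LINC00973 on 3q reached the highest level of the RNAs that rose, 35.7 and 30.9 CPM in SPNS2 against 2.68 and 4.28 CPM in NC. The difference was 9.57-fold (log2 fold change 3.26, SE 0.27, edgeR adjusted p = 0.0043). With 962 bases of exon it also had the highest level per length of the 128, 34.6 CPM per kb in SPNS2. The nearest protein-coding gene, DCBLD2, encodes a membrane receptor-like protein and begins 79.4 kb away. DCBLD2 rose as well, from 754 ± 9.02 to 1907 ± 59.7 CPM (log2 fold change 1.34, edgeR adjusted p = 0.00093). Levels of both genes were higher in each SPNS2 library than in each NC library.

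LINC02984 on 8q rose from 40 and 28 to 284 and 269 counts, 8.31-fold in CPM (log2 fold change 3.05, SE 0.28, edgeR adjusted p = 0.0055). LINC01116 on 2q, 292 kb from MTX2, its nearest tested protein-coding gene, rose 7.05-fold from 14 and 24 to 115 and 146 counts (log2 fold change 2.81, SE 0.35, edgeR adjusted p = 0.011). LINC01117, annotated on the opposite strand of the same span, had 0 counts in both NC libraries and 14 and 15 in SPNS2, so part of this signal could belong to either. LINC00623 on 1p rose from 1.22 and 0.95 CPM to 3.83 and 3.47 CPM (log2 fold change 1.75, edgeR adjusted p = 0.0179). Its span holds U1 small nuclear RNA genes and it lies near NBPF26, families with near-identical copies, so its counts are uncertain. It was not called with any 1 library left out.

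A second pair, farther apart than the first, lies on 15q, LINC00923 at chr15:97572185-97874550 and LINC01582 at chr15:98085627-98103712, and both rose. LINC01582 went from 40 and 23 to 185 and 264 counts, 7.21-fold (log2 fold change 2.85, SE 0.38, edgeR adjusted p = 0.0126). LINC00923 went from 43 and 42 to 267 and 154 counts, 5.13-fold (log2 fold change 2.36, SE 0.38, edgeR adjusted p = 0.0203). The 2 SPNS2 libraries thus differed at LINC00923, at 8.66 and 4.61 CPM, with both above NC. ARRDC4, which encodes an alpha-arrestin and is the nearest protein-coding gene of each, rose from 3.23 ± 0.15 to 8.82 ± 0.31 CPM (edgeR adjusted p = 0.0098). The 2 RNAs and ARRDC4 rose while the arm as a whole had a median log2 fold change of -0.21. Whether the region around them rose was not tested.

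LINC00632 on Xq (chrX:140709562-140793215) is known as the locus from which the circular RNA CDR1as is made. It was read 145 and 131 times in NC and 665 and 833 times in SPNS2. The levels of 4.52 and 3.89 CPM in NC and 21.6 and 24.9 CPM in SPNS2 did not overlap, and the difference was 5.53-fold (log2 fold change 2.47, SE 0.16, edgeR adjusted p = 0.003). The CDR1 gene annotated on the opposite strand had 0 counts in NC and 4 and 2 in SPNS2. Gene counts do not separate linear from circular transcripts. Its nearest tested protein-coding gene, 209 kb away, was the cancer-testis gene SPANXB1.

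LINC00472 on 6q hosts the microRNA genes MIR30A and MIR30C2 on its own strand, and their mature sequences, from RefSeq, are shown because the host is the only called RNA with a microRNA on its strand. Capitals mark the seed, bases 2 to 8, which miR-30a-5p and miR-30c-5p share.
hsa-miR-30a-5p: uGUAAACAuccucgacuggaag
hsa-miR-30c-5p: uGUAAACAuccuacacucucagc
hsa-miR-30a-3p: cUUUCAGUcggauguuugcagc
hsa-miR-30c-2-3p: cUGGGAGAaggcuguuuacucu
The host was at 7.63 and 7.69 CPM in NC and 27.3 and 22.5 CPM in SPNS2, 3.25-fold higher (log2 fold change 1.70, SE 0.15, edgeR adjusted p = 0.005). Mature microRNAs were not measured in these libraries. OGFRL1, the protein-coding neighbour 35.4 kb away, had means of 110 ± 2.74 CPM and 99.1 ± 3.54 CPM and was not called (edgeR adjusted p = 0.185).

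The other RNAs that rose did so by smaller amounts. LINC01151 on 8q rose from 0.87 and 1.25 CPM to 2.63 and 2.96 CPM, near the limit of the test (log2 fold change 1.40, SE 0.31, edgeR adjusted p = 0.0421). The 6 remaining RNAs had log2 fold changes of 0.74 to 1.23. Among them LINC01358, named here after its values were seen, overlaps FGGY-DT on the opposite strand, whose counts ran the other way (79 and 77 in NC, 34 and 22 in SPNS2) and came to 65.2% of those of LINC01358. With the median shift of each chromosome arm removed, 17 of the 20 were still called higher.

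Among the RNAs that fell, LINC00968 on 8q stood apart. It had 112 and 97 counts in NC and 3 and 4 counts in SPNS2, or 3.49 and 2.88 CPM against 0.097 and 0.12 CPM. The log2 fold change was -4.82 (SE 0.38, edgeR adjusted p = 0.004). PENK-AS1, annotated over it on the opposite strand, had 33 counts in all. The nearest tested protein-coding gene, CHCHD7, lay 277 kb away.

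LINC01940 on 2q was at 10.1 and 9.89 CPM in NC and 1.85 and 0.87 CPM in SPNS2, 7.34-fold lower (log2 fold change -2.88, SE 0.40, edgeR adjusted p = 0.014). Its annotated span lies 8.76 kb from TWIST2, a basic helix-loop-helix transcription factor of mesenchymal cells, which fell less, from 46.0 ± 0.83 to 34.8 ± 0.46 CPM (log2 fold change -0.40, edgeR adjusted p = 0.0331). LINC01547 on 21q was at 5.89 and 8.22 CPM in NC and 2.14 and 1.32 CPM in SPNS2, 4.08-fold lower (log2 fold change -2.03, SE 0.34, edgeR adjusted p = 0.0223). Its start lies 97 bp from that of SLX9, a ribosome biogenesis gene read from the other strand. SLX9 had means of 9.90 ± 3.21 and 11.7 ± 3.09 CPM and was not called (edgeR adjusted p = 0.641). No difference between the changes of the 2 sides was tested.

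A pair of RNAs on chromosome 20, on different arms, fell and so did the gene next to each. LINC00654 went from 10.1 and 10.1 CPM in NC to 4.74 and 3.89 CPM in SPNS2 (log2 fold change -1.23, SE 0.18, edgeR adjusted p = 0.0161). GPCPD1, a glycerophosphocholine phosphodiesterase 39.8 kb away, went from 37.3 ± 1.60 to 16.5 ± 1.02 CPM (log2 fold change -1.18, edgeR adjusted p = 0.0054). LINC02970 was at 13.7 and 10.8 CPM in NC and 3.93 and 6.35 CPM in SPNS2 (log2 fold change -1.25, SE 0.29, edgeR adjusted p = 0.0466). SLCO4A1, an organic anion transporter 39.3 kb from it, fell from 208 ± 0.45 to 103 ± 5.47 CPM (log2 fold change -1.01, edgeR adjusted p = 0.0029).

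The remaining RNAs that fell lost between 1.47- and 2.77-fold. LINC02535 was at 5.58 and 4.48 CPM in NC and 1.36 and 2.28 CPM in SPNS2 (log2 fold change -1.46). LINC00355 was at 3.83 and 3.47 CPM in NC and 1.46 and 1.38 CPM in SPNS2 (log2 fold change -1.36). LINC00839 and LINC01518, both on 10q near ZNF33B, had log2 fold changes of -1.0 and -1.19, and LINC01588 and LINC00638, on 14q, of -1.15 and -1.03. LINC01963, LINC00674 and LINC00938, with NC means of 19.9, 10.8 and 20.8 CPM, had the smallest called changes (log2 fold changes -0.73, -0.68 and -0.56). XRCC5 (the Ku80 subunit of DNA end joining) and KPNA2 (an importin) are the neighbours of LINC01963 and LINC00674 and went the other way, with log2 fold changes of 0.23 and 0.27 (edgeR adjusted p = 0.0277 and 0.0295). With arm medians removed, 9 of the 14 were still called lower.

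**Figure D2:**
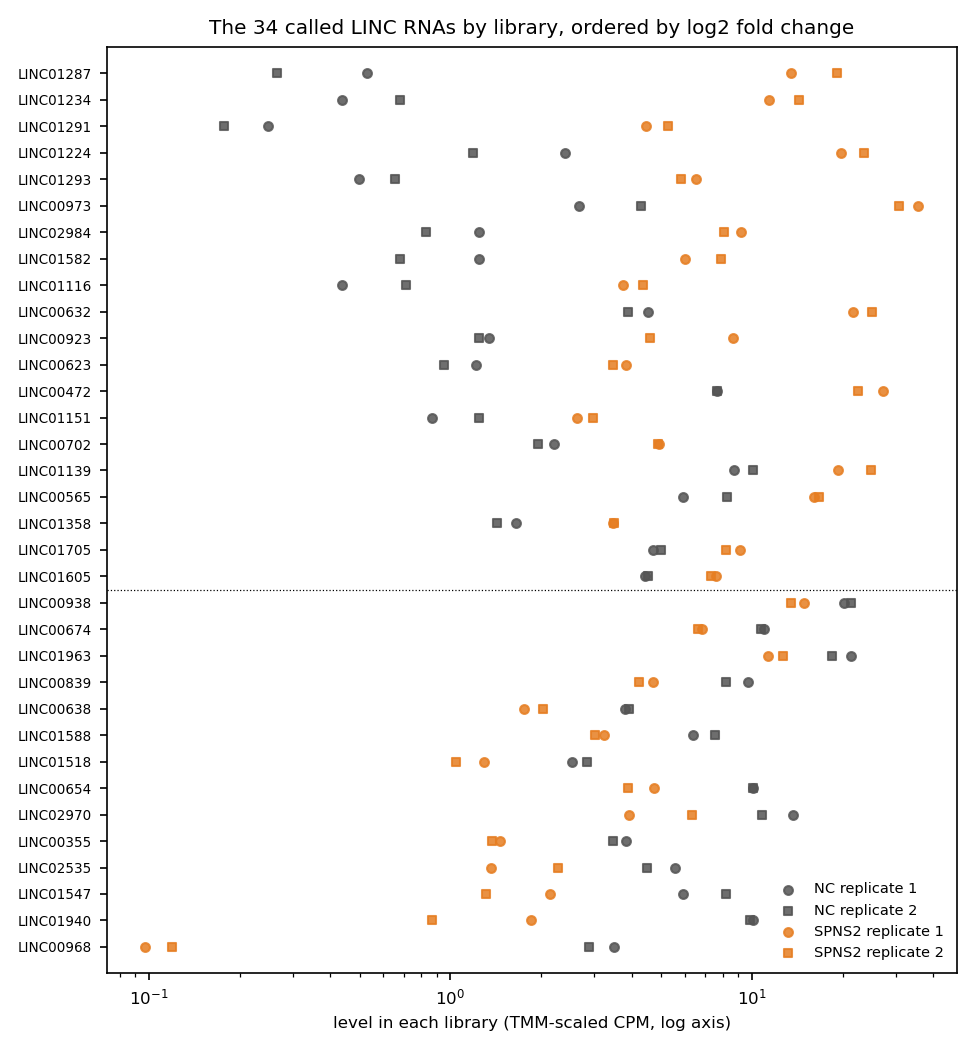
Level in each library (x axis, TMM-scaled CPM, log axis) of the 34 called RNAs, ordered by log2 fold change from LINC01287 at the top to LINC00968 at the bottom, with NC in grey, SPNS2 in orange, replicate 1 as circles and replicate 2 as squares. The groups lie apart in every row, and the gap narrows towards the dotted line between the 20 that rose and the 14 that fell.

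The calls depended on having all 4 libraries, and so did those over all tested genes, whose numbers are given in the closing section. The loss is thus not particular to the LINC RNAs. With 1 library left out, 12 to 17 of the 34 calls were kept, and 11 RNAs were called in each of those 4 fits and in every other refit that gave them an adjusted p: LINC01287, LINC01234, LINC01291, LINC01224, LINC01293, LINC00973, LINC02984, LINC01582, LINC00632, LINC00472 and LINC00968. All but LINC00968 rose. Among them LINC01287, LINC01234, LINC01291, LINC01293, LINC02984 and LINC01582 had fewer than 100 counts over the NC libraries. LINC00968 had fewer than 100 counts over the SPNS2 libraries. These RNAs could pass the floor of 200 counts only through the group where they are high. Of the RNAs that fell, only LINC00968 was called in all 4 fits with a library left out, and every other lost its call in at least 1. The RNAs that rose and are not among the 11 also lost their call in at least 1 of those 4 fits. Directions held for all 34 in the fits with a library left out, which follows from groups that do not overlap and adds no support.

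**Figure D3:**
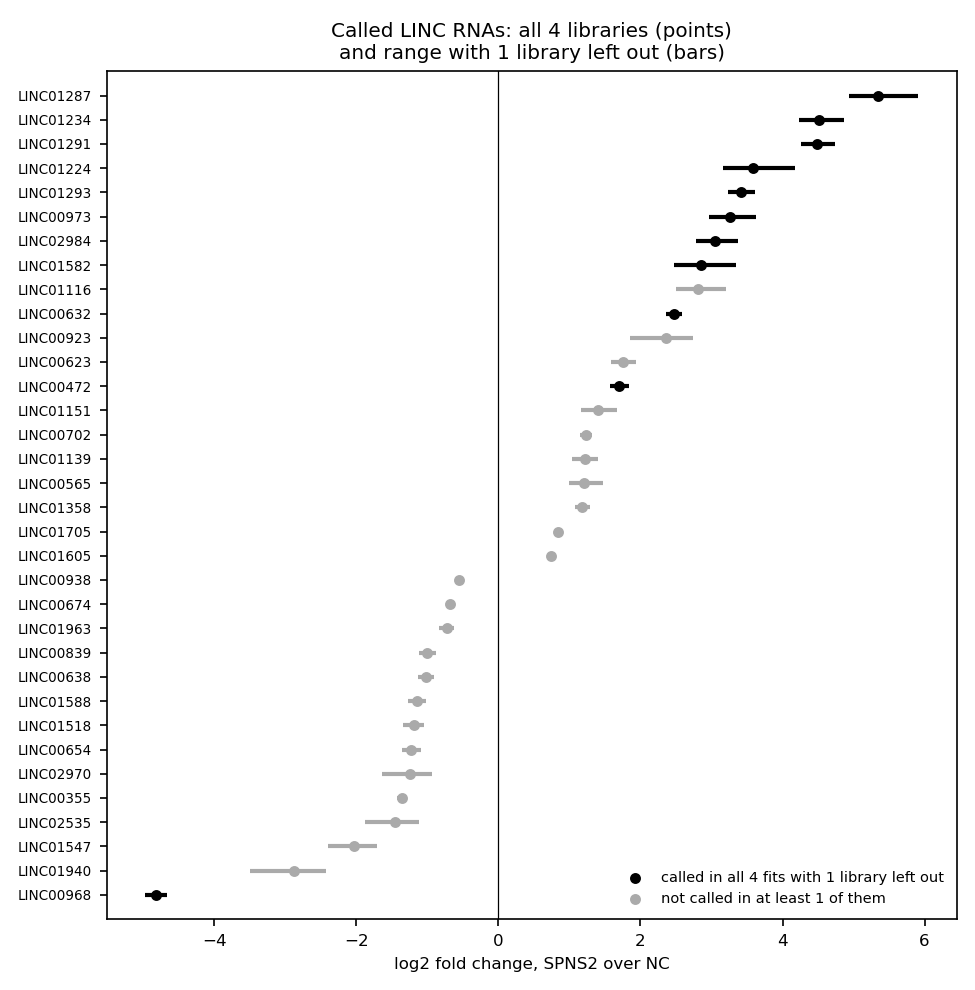
Log2 fold change of SPNS2 over NC (x axis) for the 34 called RNAs: points are the fit on 4 libraries and bars run from the lowest to the highest value when 1 library is left out. The 11 RNAs in black were called in each of those 4 fits. No bar crosses 0, which follows from groups that do not overlap at any of the 34.

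Of the 10 most abundant RNAs 3 were called, LINC00973 and LINC00472 higher and LINC00938 lower, a share near the 23.4% of all tested genes given the small number. LINC02693 had 1739 and 1839 counts in NC and 1632 and 466 in SPNS2, so only SPNS2 replicate 2 was low (log2 fold change -0.70, edgeR adjusted p = 0.475). Without SPNS2 replicate 1 it was called lower, at -1.95 on the log2 scale. LINC01128 was at 33.4 and 36.5 CPM in NC and 42.2 and 33.0 CPM in SPNS2 (edgeR adjusted p = 0.667). LINC00662, studied in glioma and other tumours, was at 33.9 and 30.8 CPM in NC and 26.7 and 23.2 CPM in SPNS2 (log2 fold change -0.37, edgeR adjusted p = 0.0992). Its span overlaps that of LINC02987 on the opposite strand of 19q, which was at 21.3 and 13.9 CPM in NC and 22.5 and 24.4 CPM in SPNS2 (edgeR adjusted p = 0.266). LINC00963 was at 20.1 and 31.1 CPM in NC and 20.9 and 22.4 CPM in SPNS2, and its groups overlapped. LINC00665, one of those later reported to encode a small protein, was at 18.6 and 18.4 CPM in NC and 13.6 and 18.1 CPM in SPNS2; its groups just missed overlapping and it was not called (edgeR adjusted p = 0.422).

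Of 22 LINC RNAs listed for published work in glioma or cancer, 12 passed the floor, and 2 of these were called, LINC01116 higher and LINC00839 lower. With 12 RNAs that count is near the 23.4% of all tested genes. LINC00511 was at 6.48 and 10.7 CPM in NC and 3.99 and 3.35 CPM in SPNS2 and missed the threshold (log2 fold change -1.23, edgeR adjusted p = 0.0542). DESeq2, a robust fit, library totals without factors and the fit without NC replicate 1 each called it lower. LINC01133 was at 8.63 and 8.10 CPM in NC and 5.68 and 5.27 CPM in SPNS2 (log2 fold change -0.61, edgeR adjusted p = 0.0614) and was called lower with arm medians removed. LINC00461, a brain-enriched RNA that hosts MIR9-2, was read 74 and 252 times in NC and 266 and 215 times in SPNS2. NC replicate 1 was low and the other 3 libraries alike, and the RNA was not called (edgeR adjusted p = 0.501). LINC00467, LINC00641, LINC00342 and LINC00520 were not called either, with log2 fold changes of -0.26, -0.32, 0.16 and -0.73.

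Some RNAs differed more within a group than between groups. LINC00205 had 944 and 270 counts in NC against 49 and 1099 in SPNS2, so each group held 1 high and 1 low library. The gap within SPNS2 was 4.33 on the log2 scale, the largest of the 128. POFUT2, a protein O-fucosyltransferase whose start lies 152 bp from that of LINC00205 on the other strand, was even in all 4, with 1587, 1806, 1608 and 1786 counts. LINC01270 (27 and 140 counts in NC, 56 and 5 in SPNS2) and LINC01109 (45 and 8, then 104 and 55) were the other two with the largest gaps. A gap over 1 on the log2 scale within at least 1 group was seen at 15 RNAs. The median gap was 0.29 within NC and 0.27 within SPNS2, against 0.26 and 0.29 for protein-coding genes of like level, so the spread of the RNAs as a set was close to theirs.

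**Figure D4:**
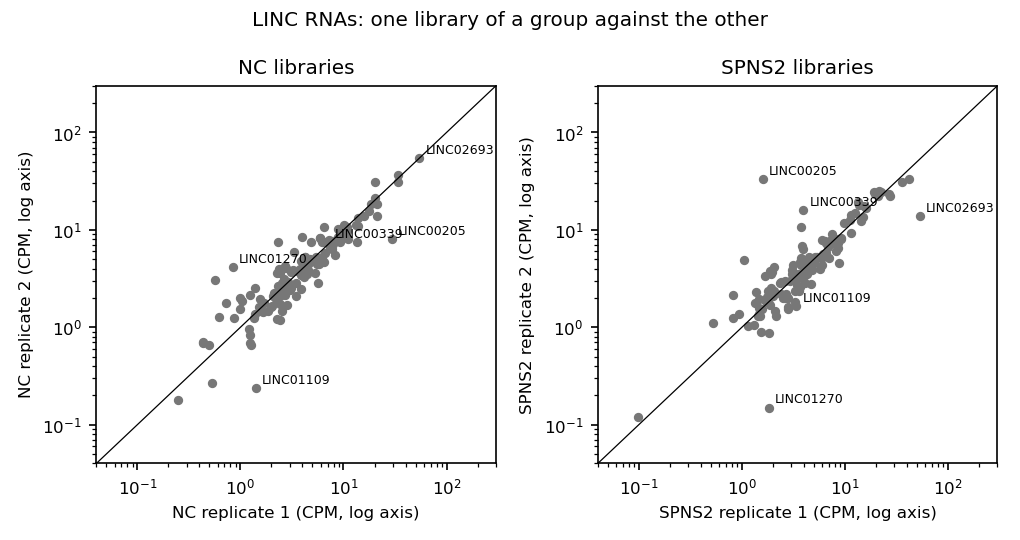
Level of the 128 RNAs in replicate 1 (x axis) against replicate 2 (y axis) of the NC group (left) and the SPNS2 group (right), in TMM-scaled CPM on log axes, with the line of equal level. Most points follow the line, and LINC00205 lies below it in NC and far above it in SPNS2.

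The nearest tested protein-coding gene was compared with each RNA by position. Of the 127 RNAs with a position, 89 overlapped or lay within 100 kb of such a gene, and 46 of these 89 had a log2 fold change of the same sign as the gene. Among the 23 called RNAs in this range, the gene was called the same way in 7, the other way in 2 and not called in 14. POLE4 is counted in the 7 for both LINC01291 and LINC01293. Of all tested protein-coding genes 14.8% rose and 13.6% fell, 28.4% in all, and with 23 RNAs nothing is read from the difference. Both pairs of opposite calls were the ones named above, LINC00674 with KPNA2 and LINC01963 with XRCC5. Across these 89 positions Pearson's r of the 2 log2 fold changes was 0.2 and Spearman's rho 0.161. For the 38 RNAs beyond 100 kb, r was 0.276 and rho 0.291. Among the 11 called RNAs there, the gene was called the same way in 4, the other way in 0 and not called in 7. These are descriptions across sites that share libraries and, in part, chromosome arms.

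Of the RNAs, 10 started within 2 kb of a protein-coding gene read the other way, and 3 of them shared its sign. LINC01135, named here after its values were seen, begins 801 bp from JUN, a subunit of the AP-1 transcription factor. JUN rose from 11046 and 12548 counts to 19506 and 19323 (log2 fold change 0.76, edgeR adjusted p = 0.0062), while LINC01135 was read 77 and 59 times in NC and 29 and 46 times in SPNS2 and was not called (log2 fold change -0.84, edgeR adjusted p = 0.175). The difference between the 2 changes was not tested.

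**Figure D5:**
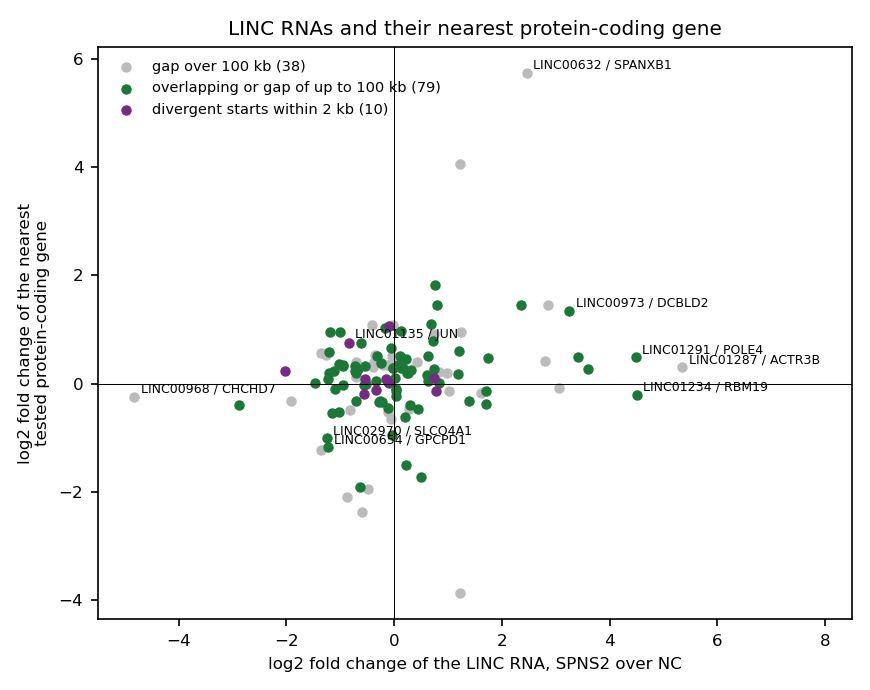
Log2 fold change of each of 127 RNAs (x axis) against that of its nearest tested protein-coding gene (y axis), coloured by the gap between them. Points spread over all 4 quadrants, and LINC00973 with DCBLD2 and LINC00632 with SPANXB1 lie at the upper right.

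Well-known long noncoding RNAs outside the LINC numbering were read from a hand-chosen list of 60, of which 51 were tested. Of these 2 rose, 3 fell and 46 were not called, 9.8% beside 23.4% of all tested genes, and the difference in share was not tested. NORAD, a cytoplasmic RNA that binds Pumilio proteins, was the most abundant, at 756 and 764 CPM in NC and 786 and 829 CPM in SPNS2 (edgeR adjusted p = 0.254). LINC-PINT, whose name falls outside the numbering, rose from 41.8 and 46.1 CPM to 86.6 and 86.6 CPM (log2 fold change 0.98, SE 0.081, edgeR adjusted p = 0.0043), and MIR4435-2HG rose to 62.2 and 64.5 CPM from 50.2 and 47.2 CPM. MIR99AHG, host of the miR-99a cluster, fell from 17.1 and 15.1 CPM to 6.46 and 3.65 CPM (log2 fold change -1.67, SE 0.31, edgeR adjusted p = 0.0276). The snoRNA hosts ZFAS1 and SNHG29 fell by 0.33 and 0.31 on the log2 scale. Among all tested genes typed lincRNA in GENCODE 29, 11.7% of 946 were called, at a median of 0.923 CPM. Of the 176 tested LINC RNAs under the floor of 200 counts, 12.5% were called.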

How the data were processed

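RNA from 4 libraries of the U118-MG line was analysed from a table of raw counts per Ensembl gene deposited by the authors, whole numbers that were not normalized. The submitters' processing notes name hg38 as build and Trim Galore 0.6.9, HISAT2 2.2.1 and featureCounts as tools. For the annotation release, the strand setting and multiply mapped reads, the answer is not given in the sources used here. One row of annotation text without counts was left out. The labels do not tell whether libraries of one group are separate cultures, so p-values reflect only the spread between these samples, and it may be technical.

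Genes were kept by filterByExpr (minimum count 10, minimum total 15), which left 17853, and scaled by TMM. The quasi-likelihood test of edgeR 4.0.16 in R 4.3.3, two-sided with the group as sole term, compared SPNS2 with NC. P-values were adjusted by Benjamini-Hochberg across every tested gene, with calls at under 0.05. The standard error is the log2 fold change divided by the square root of F. Levels are TMM-scaled CPM. The fit was also run on counts simulated from NC means with the dispersions of the fit itself. That run cannot show how the test does where libraries of a group differ as at LINC00205, and nothing here rests on it. Positions, exon lengths (union of exons) and gene types came from GENCODE 29 on GRCh38, the assembly of hg38, by Ensembl identifier, arms from approximate centromere positions, and promoter and microRNA sequences from RefSeq on GRCh38.p14 by symbol or position. A gap between libraries is the log2 difference of CPM + 0.05.

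The RNAs and lists were chosen with earlier results of these data known. Named were the 14 highest and 14 lowest called fold changes, the 10 most abundant, the RNAs beside the floor, the 3 largest gaps within a group and a list from published work. Nearest tested protein-coding genes of named called RNAs were given with values only within 100 kb, and not all of them. NT5E (by LINC02535), VCPKMT (LINC01588), ZBTB42 (LINC00638), ARID2 (LINC00938) and ZHX2 (LINC01151) lie in that range without values above. So do ZNF33B and NBPF26. None of these was called, while every called neighbour in that range has its values above. LINC01135, LINC01358, POFUT2, JUN and the genes that overlap a named RNA were named after their values were seen. Alternatives were DESeq2 1.42.0, limma-voom (limma 3.58.1), a robust fit, other scaling, filters and floors, a replicate block, arm medians removed and each library left out.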

Additional observations from a re-analysis of the deposited data

How the results depend on the processing

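The 14 highest and 14 lowest called RNAs kept their direction in each refit of the counts. With a library left out this follows from groups that do not overlap. The other floors and the removal of overlapping RNAs only change which RNAs are counted. Of the log2 fold changes of named RNAs over all alternatives 542 stayed on their side of the threshold, 85 lost a call, 6 gained one and 11 changed sign. The 34 calls were all kept by limma-voom, the robust fit, the other scalings (RLE, upper quartile, totals) and a minimum of 1 CPM, and DESeq2 kept 32. RNAs called lower numbered 14 and became 8 with no filter on low counts. Over all tested genes the main fit called 4171. A replicate block left 3 called lower and 1976 genes called in all. The labels do not tell whether same-numbered libraries belong together. Deviations from the group mean in NC replicate 1 and SPNS2 replicate 1 had a correlation of -0.0778 over 17853 genes. A pairing was not tested. With 1 library left out, 11 to 14 RNAs were called higher, 1 to 5 lower and 1712 to 2144 genes in all. A floor of 1000 counts left 7 higher and 4 lower, at least 100 counts in each group left 10 higher, and leaving out RNAs that overlap another gene left 7 higher and 9 lower. These last settings hold fewer RNAs. For the other settings the cause was not tested.

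Only uncalled RNAs changed sign. On the log2 scale, LINC01128 was -0.0663 without SPNS2 replicate 1 (range over left-out libraries to 0.273) and LINC00963 0.107 without NC replicate 2 (from -0.519). LINC00205 ranged from -3.55 to 1.11, LINC01270 from -4.01 to 0.214, LINC01003 from -0.381 to 0.631 and LINC01409 from -0.082 to 0.012. LINC01003 was -0.0094 with upper-quartile factors, -0.019 with library totals and -0.020 with arm medians removed. The log2 ratio of summed levels, 0.094, was 0.047 with upper-quartile factors and 0.139 without the most abundant RNA.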
